A study of Homo sapiens with 12 samples.

Results

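The genes described here serve the mRNAs of replication-dependent histones and the delivery of the histones made from them. The 10 members, chosen by name among the 50868 genes of the count table, were NPAT, CASP8AP2, SLBP, LSM10, LSM11, ZNF473, CPSF3, ERI1, ASF1B and CHAF1A, and all 10 passed the filter on low counts. Replication-dependent histone mRNAs are made in bulk while DNA is copied, and they are the metazoan mRNAs that end in a conserved stem-loop instead of a poly(A) tail. NPAT and CASP8AP2 act at the histone gene clusters, where transcription and processing take place together. SLBP binds the stem-loop, the U7 small nuclear ribonucleoprotein base-pairs with the pre-mRNA downstream of it, and CPSF3 cuts between them. ASF1B and CHAF1A then carry new histones H3 and H4 to freshly replicated DNA.

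The 12 libraries, 4 groups of 3, are RNA of MG63, an established line grown from a human osteosarcoma. Cells of the compound experiment received 1 µM anticarin-beta or its vehicle for 18 hours. Cells of the siRNA experiment were transfected with CCT4-specific siRNA or with Allstar control siRNA and collected after 2 days; CCT4 encodes a subunit of the cytosolic chaperonin. The design names the CCT4 knockdown and the compound as the treatments whose transcriptomes are to be examined. Every group is the same line, the labels do not say that replicates came from separate cultures, and p-values therefore measure the spread between these libraries, which may be technical.

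Library totals ran from 13393750 to 17492095 counts, and levels below are CPM, counts relative to the TMM-scaled library total, unless another unit is named. CCT4 itself stood at 206 ± 9.18 CPM with CCT4 siRNA and 177 ± 14.4 CPM with control siRNA (SD, n = 3 per group; log2 fold change 0.22 ± 0.09 SE, adjusted p = 0.129), so its mRNA was no lower where the label names the knockdown, and each direction given for that comparison is that of the libraries as labelled. Of the lineage markers, COL1A1, COL1A2, SPARC and VIM were abundant in all 12 libraries (lowest value 305 CPM, for COL1A2) and RUNX2 and ALPL were present at medians of 5.18 and 13.7 CPM. HBB had 0 counts in all 12 libraries and CDH1 in 10 of 12, EPCAM and PTPRC reached at most 0.335 and 2.13 CPM, and the endothelial genes PECAM1 and CDH5 had medians of 7.95 and 1.78 CPM.

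With anticarin-beta, 7 of the 10 genes fell and 0 rose. LSM10 fell most, 5.17-fold, followed by ASF1B (4.10-fold), CPSF3 (3.46-fold), CHAF1A (2.46-fold), CASP8AP2 (2.31-fold), SLBP (1.68-fold) and LSM11 (1.43-fold). NPAT, ZNF473 and ERI1 did not pass the test. Of all 17717 genes tested 73.0% changed, 38.0% falling, and the median log2 fold change was −0.98 over the 10 genes and −0.06 over all genes tested. By edgeR 0 members rose, also at an unadjusted p under 0.05, and DESeq2 and limma-voom likewise gave 0. All 3 anticarin-beta libraries lay below all 3 vehicle libraries for the same 7 genes, against 38.8% of all genes tested. In bulk libraries, fewer cells in a phase of the cell cycle and less RNA per cell cannot be told apart. Scaled by library totals alone, which puts the median of all genes at −0.48, 9 of the 10 fell, with NPAT (−0.38) and ZNF473 (−0.51 on the log2 scale) added and 0 rising, while 50.6% of all genes tested fell and 24.2% rose.

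In the libraries labelled CCT4 siRNA, 3 of the 10 genes changed. NPAT fell 1.69-fold and LSM11 1.62-fold, whereas ASF1B rose 1.28-fold. For all genes tested, 19.7% changed in this comparison, 9.04% falling and 10.7% rising. The median log2 fold change was −0.22 over the 10 genes and 0.01 over all genes tested. With library totals alone 4 fell, NPAT, LSM11, CPSF3 and SLBP, and 0 rose, while 15.8% of all genes tested fell and 5.09% rose.

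**Figure D1:**
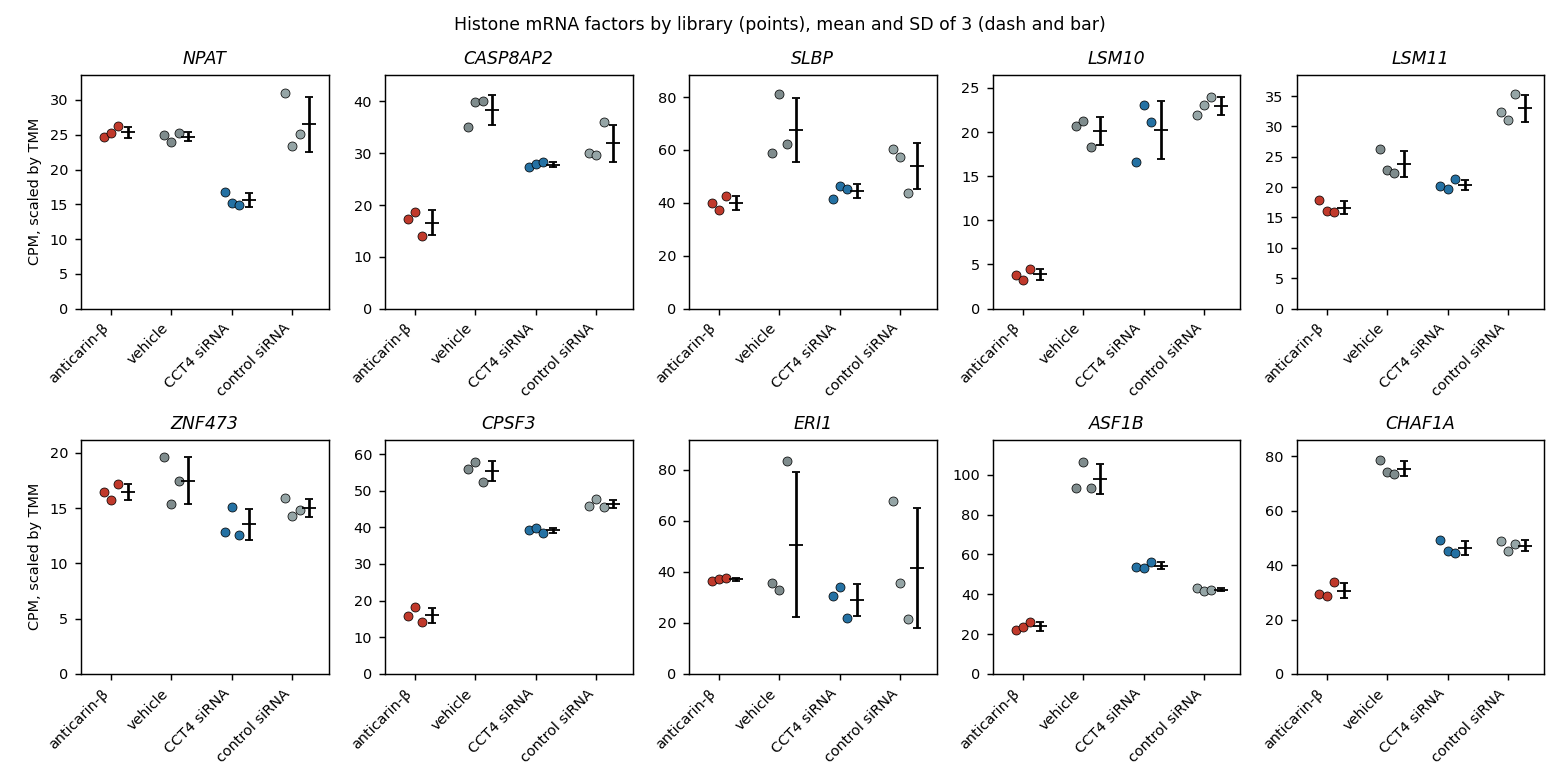
Levels of the 10 genes in CPM scaled by TMM, with 1 point per library in the 4 groups; the dash and bar give the mean and SD of 3 libraries. LSM10, CPSF3 and ASF1B lie far below vehicle in the anticarin-beta libraries, NPAT is lowest in the 3 libraries labelled CCT4 siRNA, and ERI1 spreads from 32.8 to 83.2 CPM among the vehicle libraries alone.

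**Figure D2:**
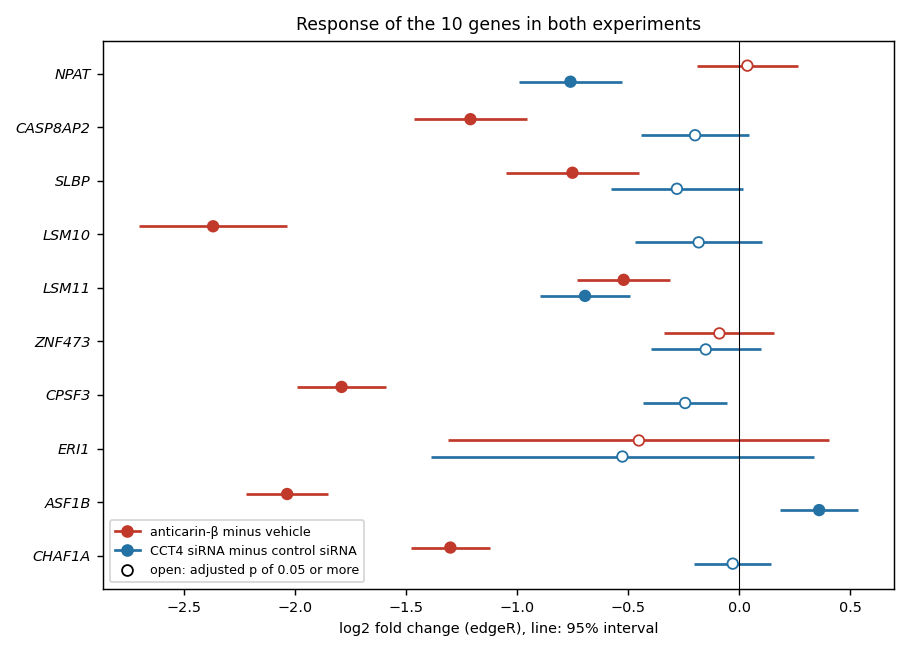
Log2 fold changes of the 10 genes with 95% intervals (edgeR) for anticarin-beta minus vehicle and for CCT4 siRNA minus control siRNA; filled points have an adjusted p under 0.05. In the compound comparison 7 points are filled and all lie to the left of 0, and in the siRNA comparison NPAT and LSM11 lie to the left and ASF1B to the right.

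NPAT, a coactivator of histone gene transcription that cyclin E-CDK2 phosphorylates, is encoded on the minus strand of chromosome 11 (108157215 to 108222642, ENSG00000149308, GRCh38). It had 24.7, 25.2 and 26.2 CPM with anticarin-beta, against 24.9, 24.0 and 25.2 CPM with vehicle. These groups overlap, and NPAT differed by 0.04 on the log2 scale (95% interval −0.19 to 0.27, adjusted p = 0.761); its sign turned with upper-quartile scaling (−0.077), with library totals (−0.38, adjusted p = 0.00559) and without vehicle replicate 2. In the siRNA experiment NPAT had 16.8, 15.2 and 14.9 CPM in the libraries labelled CCT4 siRNA, against 30.9, 23.4 and 25.1 CPM with control siRNA. The groups do not overlap, and the log2 fold change was −0.76 ± 0.11 (SE, adjusted p = 5.24e-04). The difference between the responses was 0.80 on the log2 scale (adjusted p = 5.38e-04), so the change with the compound lay above that in the siRNA experiment.

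CASP8AP2, also called FLASH, binds LSM11 and helps to bring the cleavage factors to histone pre-mRNA; the gene is on the plus strand of chromosome 6 (89829894 to 89874436, ENSG00000118412). It had 17.3, 18.6 and 14.0 CPM with anticarin-beta, against 35.1, 40.0 and 40.2 CPM with vehicle, with no overlap. The log2 fold change was −1.21 ± 0.12 (SE, adjusted p = 9.28e-07). With CCT4 siRNA it had 27.3, 27.9 and 28.2 CPM, against 30.0, 29.7 and 36.0 CPM with control siRNA. These groups do not overlap either, as for 41.8% of all genes tested, but the log2 fold change of −0.20 missed the threshold (95% interval −0.44 to 0.05, adjusted p = 0.249).

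SLBP, the protein that stays with the histone stem-loop through processing, export and translation, is encoded on the minus strand of chromosome 4 (1692800 to 1712555, ENSG00000163950). The site it recognises is shown for the 4 histone genes among those named by rule in which the stem-loop letters were found, with the stem-loop in capitals between flanking bases, as the GENCODE release 29 transcripts have it, 5′ to 3′ in DNA letters. HIST1H2BG and HIST1H2BF are on chromosome 6 (26215159 to 26216692, minus strand, and 26199520 to 26200715, plus strand). HIST3H2A and HIST2H3C are on the minus strand of chromosome 1 (228456979 to 228457873 and 149839538 to 149841193).
HIST1H2BG: tcaaaGGCTCTTTTCAGAGCCactcaagtc
HIST1H2BF: ccaaaGGCTCTTTTAAGAGCCacccacttt
HIST3H2A: ataaaGGCTCTTTTCAGAGCCacctactat
HIST2H3C: caaaaGGCTCTTTTCAGAGCCacccacatc
The 4 sites differ in their flanks and, in HIST1H2BF, in the loop base before AGAGCC, which the search left free. The pattern, 16 letters read on the transcript strand, was found in 23 of 74 annotated histone genes (31.1%) and in 0.0443% of the 58676 genes with a GENCODE transcript; histone genes without it may carry other letters of the same fold. In these 4 genes the first annotated transcript holding the pattern runs 390 to 1154 bases past the stem-loop, and other transcripts were not measured. A count for the gene therefore does not say which 3′ end the RNA had.

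SLBP mRNA itself had 40.0, 37.4 and 42.7 CPM with anticarin-beta, against 58.8, 81.3 and 62.1 CPM with vehicle. Every treated library was below every vehicle library, and the log2 fold change was −0.75 ± 0.14 (SE, adjusted p = 3.09e-04). With CCT4 siRNA it had 41.5, 46.4 and 45.3 CPM, against 60.5, 57.4 and 43.8 CPM with control siRNA. The groups overlap through control siRNA replicate 3, and the log2 fold change of −0.28 missed the threshold (95% interval −0.58 to 0.02, adjusted p = 0.178). The difference between the responses, −0.47 on the log2 scale, also missed it (95% interval −0.89 to −0.05, adjusted p = 0.0527) and passed without vehicle replicate 1 (−0.57) or 3 (−0.54) or control siRNA replicate 1 (−0.57). It also passed with library totals (−0.76, adjusted p = 0.00382), upper-quartile scaling (−0.56, adjusted p = 0.0273) and no filter on low counts (−0.49, adjusted p = 0.0396).

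LSM10 and LSM11 are the ring proteins particular to the U7 particle, in which they take the place of a pair of the Sm proteins of spliceosomal particles. LSM10 (chromosome 1, 36391238 to 36397892, ENSG00000181817, minus strand) had 3.86, 3.23 and 4.52 CPM with anticarin-beta, from 35 to 54 counts per library, against 20.7, 21.3 and 18.3 CPM with vehicle, from 343 to 388 counts. The groups are far apart, and LSM10 changed by −2.37 ± 0.15 on the log2 scale (SE, adjusted p = 1.93e-08). In the siRNA experiment it had 16.6, 23.0 and 21.1 CPM with CCT4 siRNA and 21.9, 23.1 and 23.9 CPM with control siRNA. These groups overlap (log2 fold change −0.18, 95% interval −0.47 to 0.10, adjusted p = 0.370).

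LSM11 (chromosome 5, 157743695 to 157760709, ENSG00000155858, plus strand) had 17.9, 16.0 and 16.0 CPM with anticarin-beta, against 26.2, 22.9 and 22.4 CPM with vehicle. Its decrease was smaller than that of LSM10 in size, without overlap between the groups (log2 fold change −0.52 ± 0.10 SE, adjusted p = 3.15e-04). It had 20.2, 19.6 and 21.3 CPM in the libraries labelled CCT4 siRNA, against 32.4, 31.1 and 35.4 CPM with control siRNA. The groups again do not overlap (log2 fold change −0.69 ± 0.09 SE, adjusted p = 4.14e-04). LSM11 was the only member called lower in both comparisons. Of all genes tested 38.0% fell with the compound and 9.04% in the siRNA comparison. The share falling in both was not counted. The difference between the responses of LSM11 was 0.17 on the log2 scale (95% interval −0.12 to 0.46, edgeR adjusted p = 0.280).

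ZNF473, also called ZFP100, is a zinc finger protein that binds LSM11 and the complex of SLBP with the stem-loop (chromosome 19, 50025714 to 50053414, ENSG00000142528, plus strand). It had 16.4, 15.7 and 17.2 CPM with anticarin-beta, against 19.6, 15.4 and 17.4 CPM with vehicle. It had 12.9, 15.1 and 12.6 CPM with CCT4 siRNA, against 16.0, 14.3 and 14.8 CPM with control siRNA. Both pairs of groups overlap, with log2 fold changes of −0.09 (95% interval −0.34 to 0.16, adjusted p = 0.495) and −0.15 (−0.40 to 0.10, adjusted p = 0.400). Exons of VRK3 and of a non-coding gene on the opposite strand cover 468 bases of ZNF473 exons, and no source says whether the counting kept the strands apart, so ZNF473 counts are uncertain.

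CPSF3 is the nuclease that cuts histone pre-mRNA as well as pre-mRNAs that receive a poly(A) tail (chromosome 2, 9423568 to 9473101, ENSG00000119203, plus strand). It had 15.8, 18.2 and 14.1 CPM with anticarin-beta, against 55.9, 57.8 and 52.4 CPM with vehicle. The groups lie far apart (log2 fold change −1.79 ± 0.09 SE, adjusted p = 2.61e-09). With CCT4 siRNA it had 39.2, 39.9 and 38.5 CPM, against 45.9, 47.7 and 45.6 CPM with control siRNA. All 3 were below all 3 controls, as for 20.1% of all genes tested, but the log2 fold change of −0.24 (95% interval −0.43 to −0.05) missed the threshold after adjustment over all genes (adjusted p = 0.0720). It passed with DESeq2 (adjusted p = 0.0342), limma-voom (0.0402), library totals (0.0111) or the siRNA experiment alone (0.0208), and without anticarin-beta replicate 2 or 3; over all alternatives the adjusted p ran from 0.0111 to 0.180.

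ERI1, an exonuclease that trims the end of the stem-loop and takes part in histone mRNA decay (chromosome 8, 9002147 to 9116746, ENSG00000104626, plus strand), had the widest spread of the 10 genes among the vehicle, the CCT4 siRNA and the control siRNA libraries and the narrowest among the anticarin-beta libraries. It had 36.2, 37.2 and 37.5 CPM with anticarin-beta, against 35.5, 32.8 and 83.2 CPM with vehicle. It had 30.5, 34.2 and 21.9 CPM with CCT4 siRNA, against 67.5, 35.6 and 21.7 CPM with control siRNA. The highest vehicle library was 2.54 times the lowest, a spread that 1.88% of 11615 genes averaging 5 CPM or more reached, and the highest control siRNA library 3.12 times the lowest, reached by 0.938%. The ratio was 1.56 with CCT4 siRNA, reached by 6.71% of the genes, and 1.03 with anticarin-beta, reached by 94.3%. The log2 fold changes of −0.45 (95% interval −1.31 to 0.41, adjusted p = 0.318) with the compound and −0.53 (−1.39 to 0.34, adjusted p = 0.394) in the siRNA experiment turned to 0.10 without vehicle replicate 3 and to 0.013 without control siRNA replicate 1.

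ASF1B, the ASF1 chaperone of histones H3 and H4 that is tied to proliferation (chromosome 19, 14119509 to 14136956, ENSG00000105011, minus strand), had 21.9, 23.4 and 26.3 CPM with anticarin-beta, against 93.4, 107 and 93.6 CPM with vehicle. The groups do not overlap, and ASF1B changed by −2.04 ± 0.09 on the log2 scale (SE, adjusted p = 4.11e-10). With CCT4 siRNA it had 53.6, 53.2 and 56.3 CPM, against 43.2, 41.7 and 42.0 CPM with control siRNA. All 3 lay above all 3 controls (log2 fold change 0.36 ± 0.08 SE, adjusted p = 0.00941). With library totals alone the increase was 0.23 and missed the threshold (adjusted p = 0.0579). The responses differed by −2.40 on the log2 scale (adjusted p = 6.87e-09), the largest difference among the 10 genes.

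CHAF1A is the large subunit of chromatin assembly factor 1, which meets PCNA at the replication fork (chromosome 19, 4402662 to 4445018, ENSG00000167670, plus strand). It had 29.4, 28.7 and 33.8 CPM with anticarin-beta, against 78.7, 74.3 and 73.6 CPM with vehicle. The groups do not overlap (log2 fold change −1.30 ± 0.08 SE, adjusted p = 1.48e-08). It had 49.2, 45.2 and 44.5 CPM with CCT4 siRNA and 48.8, 45.1 and 47.8 CPM with control siRNA. Those groups overlap (log2 fold change −0.03, 95% interval −0.20 to 0.15, adjusted p = 0.845). Exons on the opposite strand cover 101 bases of CHAF1A and 29 of ASF1B, which leaves the same doubt on a small part of their counts.

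The responses in the 2 experiments were compared in 1 fit. In 6 of the 10 genes they differed: ASF1B, LSM10 (−2.19 on the log2 scale), CPSF3 (−1.55), CHAF1A (−1.27) and CASP8AP2 (−1.01) lay lower with the compound and NPAT (0.80) higher. Of all genes tested 59.9% differed, 32.4% lower and 27.5% higher. The experiments also differ in time and in the way the agent was delivered, which cannot be told apart from the treatments.

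Per kilobase of exon, levels can be set side by side between genes, but only roughly. The lengths join all annotated exons of a gene, and the annotation used for counting was not stated. The order of genes with close levels is therefore uncertain. With anticarin-beta the order was SLBP (19.8 CPM per kb), ASF1B (10.4), CHAF1A (7.12), ERI1 (5.79), CPSF3 (4.25), NPAT (3.37), LSM10 (2.59), LSM11 (2.52), ZNF473 (2.38) and CASP8AP2 (2.03). With vehicle it was ASF1B (42.5 CPM per kb), SLBP (33.3), CHAF1A (17.6), CPSF3 (14.7), LSM10 (13.4), ERI1 (7.91), CASP8AP2 (4.70), LSM11 (3.62), NPAT (3.28) and ZNF473 (2.53). SLBP thus stood above ASF1B in the treated group mean and below it in the vehicle group mean, and LSM10 stood above ERI1, CASP8AP2 and NPAT with vehicle but below ERI1 and NPAT with the compound. In the siRNA experiment the top was ASF1B (23.6 CPM per kb) before SLBP (21.9) with CCT4 siRNA, and SLBP (26.6) before ASF1B (18.4) with control siRNA.

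The 4 groups can also be ordered for each gene, though vehicle and control siRNA belong to separate experiments. Anticarin-beta had the lowest mean in 7 of the 10 genes and CCT4 siRNA in 3, NPAT, ZNF473 and ERI1. For CPSF3 and ASF1B all 4 groups were apart: CPSF3 ran from vehicle over control siRNA and CCT4 siRNA down to anticarin-beta, and ASF1B from vehicle over CCT4 siRNA and control siRNA down to anticarin-beta. LSM11 was also apart throughout, with control siRNA highest and vehicle next, then CCT4 siRNA and anticarin-beta. For SLBP and ZNF473 every group overlapped its neighbour in the order. Such orders were not counted over all genes tested, so these numbers do not set the 10 genes apart. Within an experiment, groups did not overlap for 74.6% of all genes tested with the compound and for 41.8% in the siRNA comparison.

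Several members work with a partner gene, and the ratio inside a library does not depend on the scaling; these pairs were chosen after the values were seen and get no test. Counts of LSM10 per kilobase were 1.03 ± 0.19 times those of LSM11 with anticarin-beta and 3.72 ± 0.33 times with vehicle (SD, n = 3 each). In the siRNA experiment the ratio was 4.38 ± 0.78 with CCT4 siRNA and 3.07 ± 0.17 with control siRNA. CHAF1B, the middle subunit of chromatin assembly factor 1, fell 12.6-fold with the compound (4.44 ± 1.08 CPM, against 55.9 ± 3.79 CPM with vehicle, SD, n = 3 each). The ratio of CHAF1A to CHAF1B per kilobase was therefore 8.47 ± 1.72 with anticarin-beta and 1.61 ± 0.13 with vehicle, but 2.61 ± 0.20 with CCT4 siRNA and 2.55 ± 0.19 with control siRNA. ASF1A, the other ASF1 gene, fell 6.21-fold with the compound (2.95 ± 0.45 CPM, against 18.3 ± 0.76 CPM with vehicle, SD, n = 3 each) and also fell in the libraries labelled CCT4 siRNA (log2 fold change −0.46, adjusted p = 0.0113). The ratio of ASF1B to ASF1A per kilobase was 9.09 ± 2.41 with anticarin-beta and 5.84 ± 0.46 with vehicle, and 5.04 ± 0.21 with CCT4 siRNA and 2.85 ± 0.10 with control siRNA.

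NPAT begins next to ATM, the gene of the DNA damage kinase, which runs the other way and overlaps NPAT exons by 143 bases. Whether the counting kept the strands apart is not stated, so a part of both counts and of their ratio is uncertain. ATM had 26.7, 26.3 and 33.8 CPM with anticarin-beta, against 57.1, 73.5 and 92.2 CPM with vehicle. It fell 2.56-fold (log2 fold change −1.36 ± 0.16 SE, adjusted p = 4.78e-06), whereas NPAT did not pass. In the siRNA experiment ATM had 59.2, 63.2 and 71.6 CPM with CCT4 siRNA and 64.7, 67.3 and 64.8 CPM with control siRNA, groups that overlap (log2 fold change −0.02, 95% interval −0.35 to 0.31). The ratio of NPAT to ATM per kilobase was 2.82 ± 0.31 with anticarin-beta and 1.10 ± 0.27 with vehicle, and 0.776 ± 0.12 with CCT4 siRNA and 1.29 ± 0.21 with control siRNA (SD, n = 3 each). CPSF3 shares its start region with ITGB1BP1, an integrin-binding adaptor gene on the opposite strand whose annotated start is 21 bases upstream. ITGB1BP1 fell with the compound (log2 fold change −0.73 ± 0.17 SE, adjusted p = 0.00206) and did not pass in the siRNA experiment (0.29, adjusted p = 0.269). Starts on the opposite strand within 1000 bases were also annotated for ASF1B, SLBP and ZNF473. CTB-55O6.12 beside ASF1B rose with the compound (0.72, edgeR adjusted p = 0.00168) and in the siRNA experiment (0.60, adjusted p = 0.0225). RP11-572O17.1 beside SLBP had at most 26 counts per library. It fell with the compound (−2.25, adjusted p = 2.21e-04) and did not pass in the siRNA experiment (−0.66, adjusted p = 0.224). VRK3 beside ZNF473 passed in neither (adjusted p = 0.0858 and 0.0595).

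**Figure D3:**
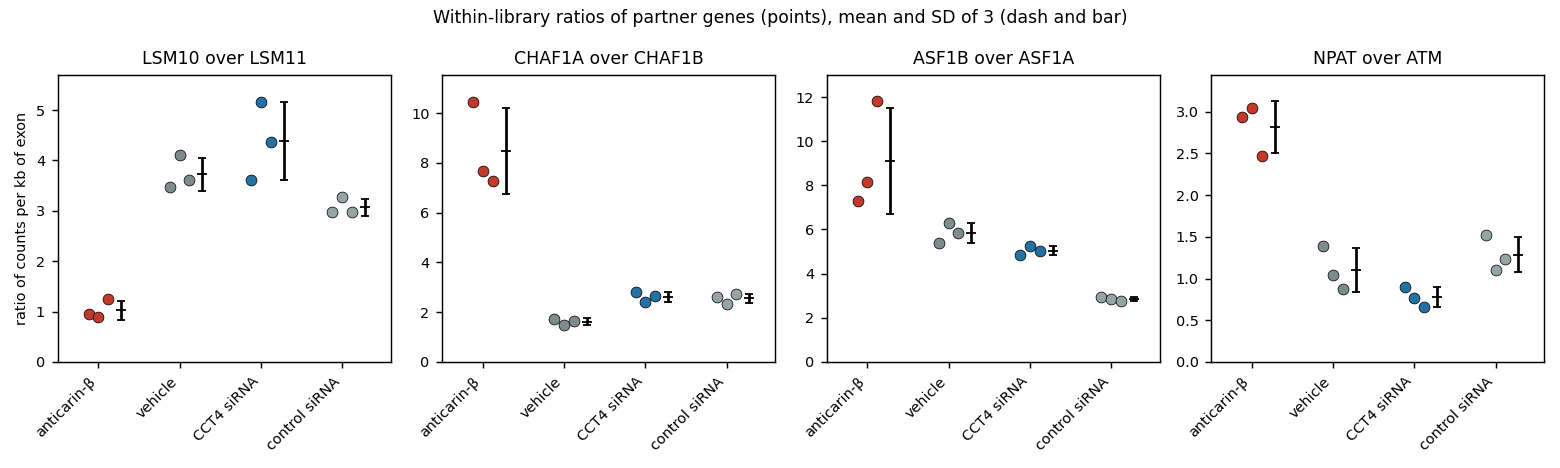
Ratios of counts per kilobase of exon within each library for LSM10 over LSM11, CHAF1A over CHAF1B, ASF1B over ASF1A and NPAT over ATM; points are libraries, the dash and bar the mean and SD of 3. The 3 anticarin-beta libraries lie below all others for LSM10 over LSM11 (0.890 to 1.24) and above all others for CHAF1A over CHAF1B (7.29 to 10.4).

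RefSeq promoter windows on GRCh38.p14, from 250 bases before to 50 after the start, were at hand and read for 8 of the 10 genes. They are printed for 3: NPAT for the start it shares with ATM, and CASP8AP2 and CPSF3 for the E2F letters. Capitals mark the E2F letters TTTCCCGC, TTTCGCGC, TTTGCCGC and TTTGGCGC and the CCAAT box on either strand, and no marked motifs overlap.
NPAT, chr11:108222589-108222888, minus strand: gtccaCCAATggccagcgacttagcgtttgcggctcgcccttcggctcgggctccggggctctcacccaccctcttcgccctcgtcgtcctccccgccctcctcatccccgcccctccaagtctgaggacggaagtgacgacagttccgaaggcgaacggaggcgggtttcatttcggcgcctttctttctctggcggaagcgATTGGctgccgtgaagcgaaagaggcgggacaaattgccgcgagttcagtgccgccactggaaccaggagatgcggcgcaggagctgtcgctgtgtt
CASP8AP2, chr6:89829630-89829929, plus strand: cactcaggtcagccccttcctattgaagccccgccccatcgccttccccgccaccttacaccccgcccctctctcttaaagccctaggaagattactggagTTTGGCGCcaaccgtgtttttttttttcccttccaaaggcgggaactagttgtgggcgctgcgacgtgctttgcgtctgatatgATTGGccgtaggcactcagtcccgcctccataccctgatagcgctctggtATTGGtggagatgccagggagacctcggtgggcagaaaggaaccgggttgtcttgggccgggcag
CPSF3, chr2:9423404-9423703, plus strand: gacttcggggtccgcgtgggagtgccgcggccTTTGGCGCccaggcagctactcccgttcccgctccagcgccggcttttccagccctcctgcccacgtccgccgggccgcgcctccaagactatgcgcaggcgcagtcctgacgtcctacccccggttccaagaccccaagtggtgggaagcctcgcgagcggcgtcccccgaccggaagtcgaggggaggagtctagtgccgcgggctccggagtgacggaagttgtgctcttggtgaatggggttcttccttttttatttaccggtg
E2F letters were found in 2 of the 8 windows, and in 3.33% of 27305 promoter windows. CCAAT was found in 5 of 8 (NPAT, CASP8AP2, LSM10, ASF1B and CHAF1A) against 35.7% of all windows, the cell cycle element TTTGAA in 2 of 8 (LSM11 and ASF1B) against 15.4%, and the NRF1 motif of 10 letters in 0 of 8 against 1.36%. NPAT carries CCAAT and not the E2F letters, and CASP8AP2 carries both. A match describes letters only.

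With the compound, of 12 partners in the cleavage complex, the U7 ring and the cap-binding complex, 4 rose and 3 fell (median log2 fold change 0.12, or 2 and 7 with library totals alone; 2 rose without vehicle replicate 2 or with upper-quartile scaling); the U7 small nuclear RNA itself was not analysed here. Over all genes tested 34.9% rose and 38.0% fell with the compound, or 24.2% and 50.6% with library totals alone. NCBP1, the large cap-binding subunit, fell 2.76-fold and CSTF2, an RNA-binding cleavage factor, 2.62-fold, while SYMPK, the scaffold that holds CPSF3, rose 1.55-fold. Of 16 factors of general polyadenylation 8 rose and 5 fell (median 0.33; 8 fell with library totals alone): RBBP6, a ubiquitin ligase that activates cleavage, rose 6.42-fold and PCF11, a termination factor, 3.89-fold, whereas CPSF1 fell 3.73-fold. Of 20 genes of histone mRNA decay and translation 10 rose and 6 fell (median 0.42). DCP1A, a decapping cofactor, rose 4.98-fold and PATL1, its partner in decapping, 3.49-fold, and LSM2, a ring protein of the decay complex, fell 8.73-fold.

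With the compound, of 21 other chaperones and histone carriers 13 fell and 4 rose (median −0.95; 1 rose with library totals alone), with CHAF1B, ASF1A and CABIN1, a subunit of the HIRA complex, which fell 4.46-fold, named by their p. Of 20 S phase genes 20 fell and 0 rose (median −1.96), POLA1 10.0-fold, RRM2 6.75-fold and MCM4 4.16-fold. Their summed level ran from 1049 to 1149 CPM with anticarin-beta and from 3243 to 3771 CPM with vehicle, and its part in the decrease of the 10 genes was not tested. Of 17 upstream regulators 5 rose and 6 fell (median 0.02; 10 fell with library totals alone), with the cyclin gene CCNE2 9.27-fold lower, E2F2 3.45-fold lower and E2F3 3.20-fold higher. The S phase list had 0 higher at an unadjusted p under 0.05 and 0 with DESeq2 or limma-voom. Beside these lists, 34.9% of all genes tested rose and 38.0% fell, or 24.2% and 50.6% with library totals alone.

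Replication-dependent histone genes, whose mRNAs the 10 factors serve, were listed by gene name alone, 75 in all. Of these 44 passed the filter, 42 annotated as protein coding and 2 annotated otherwise or not matched. With anticarin-beta 39 of the 44 rose and 0 fell (median log2 fold change 2.56, the same with HIST1H1T, which had 0 counts with vehicle, at its bound). By edgeR 0 fell at an unadjusted p under 0.05 either, and 0 with DESeq2 or limma-voom. Among all genes tested 34.9% rose and 38.0% fell with the compound. HIST3H2A had 179, 142 and 159 CPM with anticarin-beta, against 6.98, 6.03 and 5.61 CPM with vehicle, and HIST1H2BG, whose stem-loop is printed above, had 51.4, 46.9 and 50.5 CPM, against 0.959, 1.15 and 1.55 CPM. HIST1H4H rose by 5.37 on the log2 scale. Summed over the 75 genes the level was 1038 ± 37.0 CPM with anticarin-beta and 138 ± 10.1 CPM with vehicle, and 723 ± 12.6 CPM with CCT4 siRNA and 500.0 ± 18.3 CPM with control siRNA (SD, n = 3 each). Among the histone genes in which the stem-loop letters were found 18 of 20 tested rose, and among the rest 21 of 24. Histone genes are near-identical in sequence, so single members are uncertain, and the labels do not say whether libraries were selected for poly(A).

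**Figure D4:**
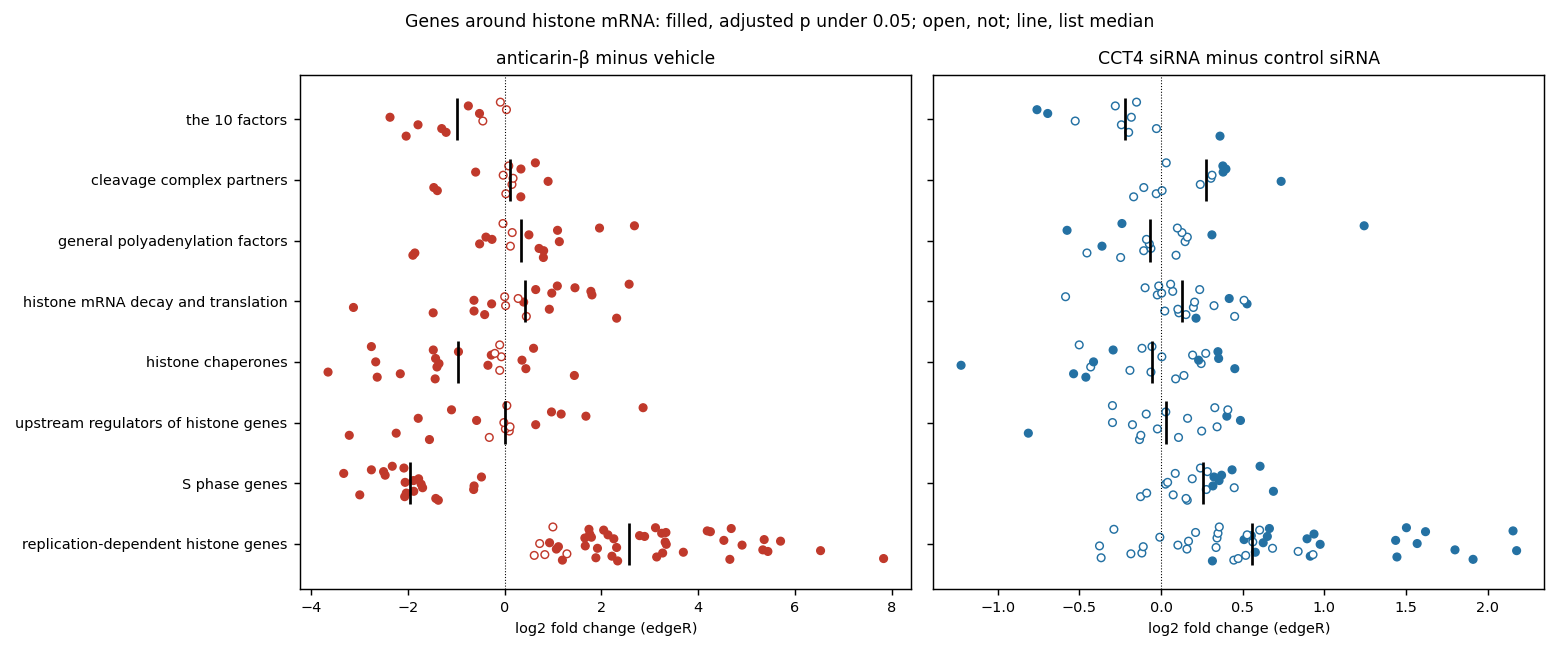
Log2 fold changes (edgeR) of the 10 factors and of 7 lists of genes around them, for anticarin-beta minus vehicle and for CCT4 siRNA minus control siRNA; filled points have an adjusted p under 0.05 and the line is the median of the list. With the compound the S phase genes all lie to the left of 0 (median −1.96) and the histone genes all to the right (median 2.56), with the 10 factors at a median of −0.98.

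In the libraries labelled CCT4 siRNA, 20 of the 44 histone genes rose and 0 fell (median 0.56; 0 fell at an unadjusted p under 0.05 and with DESeq2 or limma-voom, and 1 fell without CCT4 siRNA replicate 3), with HIST1H2BG, HIST1H2BF and HIST2H3C higher by 1.80, 2.18 and 2.15 on the log2 scale. Of 20 S phase genes 7 rose and 0 fell (median 0.26; 0 at an unadjusted p under 0.05 and with DESeq2 or limma-voom), or 3 and 1 with library totals alone; 4 rose without CCT4 siRNA replicate 1 or 2. Over all genes tested 10.7% rose and 9.04% fell in this comparison, or 5.09% and 15.8% with library totals alone. RRM2 rose 1.35-fold, UHRF1, a maintenance methylation factor, 1.52-fold and GINS2, a helicase subunit, 1.61-fold. The summed S phase level ran from 2025 to 2124 CPM with CCT4 siRNA and from 1850 to 1860 CPM with control siRNA, and its part in the rise of ASF1B was not tested. Among chaperones 4 rose and 5 fell (median −0.06; 1 rose with library totals alone; 2 rose without control siRNA or CCT4 siRNA replicate 1 or 3, and 2 or 3 fell without control siRNA replicate 2 or 3 or any CCT4 siRNA replicate), with HJURP, the chaperone of the centromeric histone, 2.34-fold lower, CABIN1 1.45-fold lower and HAT1, a histone acetyltransferase, 1.37-fold higher.

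Of the cleavage partners 4 rose and 0 fell in the libraries labelled CCT4 siRNA (median 0.27; 0 at an unadjusted p under 0.05 and with DESeq2 or limma-voom), or 2 and 0 with library totals alone; 2 rose without control siRNA or CCT4 siRNA replicate 1 or 3. The shares over all genes tested were 10.7% rising and 9.04% falling, or 5.09% and 15.8% with library totals alone. SNRPB, a core Sm protein, rose 1.66-fold, SRRT, which links the cap to processing, 1.30-fold and the Sm protein gene SNRPF 1.30-fold. Of the general polyadenylation factors 2 rose and 3 fell (median −0.07; 1 and 5 with library totals), RBBP6 2.37-fold higher, and the poly(A) polymerase gene PAPOLG 1.49-fold and CSTF1 1.28-fold lower. Of the decay and translation genes 3 rose and 0 fell (median 0.13), with LSM4 1.44-fold, DCP1A 1.16-fold and LSM7 1.34-fold higher; 1 was lower at an unadjusted p under 0.05, 1 with limma-voom and 0 with DESeq2, and with library totals 1 rose and 1 fell. Without control siRNA replicate 1 or 2 or any CCT4 siRNA replicate 1 rose, and without vehicle replicate 2 1 fell. Of the upstream regulators 2 rose and 1 fell (median 0.03; 1 rose with library totals alone and without control siRNA replicate 1 or CCT4 siRNA replicate 2, and 2 fell without CCT4 siRNA replicate 3), E2F1 1.40-fold and E2F3 1.32-fold higher and the cyclin gene CCNF, whose product marks SLBP for destruction after S phase, 1.76-fold lower.

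Genes with the pattern nearest to 2 of the factors over the 4 group means, among 11615 genes averaging 5 CPM or more, were found by the root mean square difference of centred log2 levels. Nearest to SLBP were P3H4, a collagen-modifying factor (difference 0.0291), NUP155, a nuclear pore protein (0.0394), and WDR7 (0.0415). P3H4 changed by −0.71 with the compound and by −0.27 in the siRNA experiment on the log2 scale. Nearest to NPAT were FBXO5, an inhibitor of the anaphase-promoting complex (0.0593), SYNJ1, a phosphoinositide phosphatase (0.0601), and RP11-629O1.2 (0.0615), with changes of −0.07, 0.17 and 0.03 with the compound and −0.63, −0.70 and −0.62 in the siRNA experiment.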

How the data were processed

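The authors deposited raw read counts per gene for 12 libraries in 1 table, neither normalized nor pooled. The kit was a stranded TruSeq one, per the labels' protocols. Per the submitters' processing notes, the tools include Subread, featureCounts 1.5.0 and STAR 2.5.2a, and the build is hg38. Annotation, strand setting and the treatment of multi-mapping reads were not stated in the sources used here. Groups and replicate numbers came from the labels. Same-group libraries differed beyond counting noise (chi-square per degree of freedom 8.93 to 28.8), so each counted as 1 sample.

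Tests used edgeR 4.0.16 (R 4.3.3), quasi-likelihood, two-sided, with TMM scaling, filterByExpr, 1 mean per group over all 12 libraries (8 residual degrees of freedom) and Benjamini-Hochberg adjustment over 17717 genes; genes with an adjusted p under 0.05 were called. The prior count was 0.125, and each standard error follows from its F statistic. The floor of 3 counts in 1 library equals 0.172 to 0.224 CPM, covering counting error only. Positions, exon lengths and stem-loops come from GENCODE release 29 on GRCh38, which holds 98.5% of the gene identifiers; promoters are from RefSeq, GRCh38.p14. The test was tried on simulated counts. The alternatives tried were DESeq2 1.42.0, limma-voom (limma 3.58.1), scaling by RLE, upper quartile or library totals, 2 other filters on low counts, a fit per experiment, a replicate block, and leaving out every library in turn.

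The members, lists and motifs were chosen with earlier results of these data known. Named genes were the members, CCT4, per list the 3 called genes with the smallest p in each siRNA or compound comparison, and the 3 genes nearest to SLBP and NPAT; ATM, ITGB1BP1 and HIST1H1T were added after their values were seen. Of 182 listed symbols, 181 were in the table.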

Additional observations from a re-analysis of the deposited data

Results flagged for a closer look

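The responses to anticarin-beta and in the libraries labelled CCT4 siRNA differed for 6 of the 10 genes by the test of the difference in the edgeR fit, where 59.9% of all genes tested differed, so that the count is no larger than over all genes. The largest difference was −2.40 on the log2 scale, for ASF1B, which fell with the compound and rose in the libraries labelled CCT4 siRNA. With library totals alone that rise was 0.23 and missed the threshold (edgeR, adjusted p = 0.0579). The difference was −2.19 for LSM10, −1.55 for CPSF3, −1.27 for CHAF1A and −1.01 for CASP8AP2, each lower with the compound. It was 0.80 for NPAT, which was lower in the libraries labelled CCT4 siRNA. Anticarin-beta libraries were collected at 18 hours and siRNA libraries after 2 days, which cannot be told apart from the treatments.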

How the results depend on the processing

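The 7 members that fell with anticarin-beta were called lower under each of the alternatives run, and the count of members called ran from 7 to 9. In the siRNA comparison it ran from 3 to 4 and for the difference from 6 to 7. The number of all genes called in the siRNA comparison ran from 2202 to 4026 as single libraries were left out, against 3493 with all; it was 2207 and 2202 without control siRNA replicate 1 and 2, and 2274, 2223 and 2296 without CCT4 siRNA replicate 1, 2 and 3, fits with fewer libraries. Same-numbered replicates did not deviate together over all genes (r from −0.031 to 0.026). A check over all genes cannot exclude a pairing that touches part of them. With a replicate block 7, 3 and 6 members and 12637, 2350 and 10125 genes were called in the compound comparison, the siRNA comparison and the difference. The sign turned for NPAT with the compound (−0.077 with upper-quartile scaling, −0.38 with library totals, −0.0078 without vehicle replicate 2) and for ERI1 with the compound (0.10 without vehicle replicate 3) and the siRNA (0.013 without control siRNA replicate 1). Among differences of responses it turned for LSM11 (−0.11 with library totals), for ZNF473 (−0.028 with upper-quartile scaling, −0.23 with library totals, −0.043 without vehicle replicate 2) and for ERI1 (−0.014 with upper-quartile scaling, −0.21 with library totals, −0.14 and −0.18 without vehicle replicate 1 and 2, −0.47 without control siRNA replicate 1, −0.099 without CCT4 siRNA replicate 3). Leaving out single libraries gave NPAT −0.0078 to 0.054 and ERI1 −0.71 to 0.10 with the compound, ERI1 −0.84 to 0.013 with the siRNA, and differences of −0.043 to 0.14 for ZNF473 and −0.47 to 0.63 for ERI1. None of the values that turned passed the threshold except NPAT with library totals, and the cause was not tested. Of 868 list counts under alternatives, 817 stayed within 1.5 times. These include lists in which neither the main fit nor the alternative called any gene in the given direction. Library totals move the median over all genes, in log2 units, to −0.48 with the compound and −0.12 with the siRNA, against −0.06 and 0.01 with TMM. The share of called genes that were higher was then 32.4%, against 47.9% with TMM, for the compound, 24.4% against 54.2% for the siRNA and 33.8% against 45.9% for the difference.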
